A study of Drosophila melanogaster with 28 samples.

Results

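The cuticle protein genes of Drosophila melanogaster were examined across 4 tissues of one RNA sequencing study. The set holds each gene whose name starts with Cpr and a digit, Lcp and a digit, Twdl, Ccp84 or Acp65. It comprises 116 of the 13892 genes whose name stood on a single line, with 70 Cpr, 25 Twdl, 13 Lcp and 7 Ccp84 genes and the single gene Acp65Aa. The names Lcp65Ab1 and Lcp65Ab2 stood on 2 lines each and were left out.

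The study asked which genes silence transposons in the fly ovary, and comprised 28 libraries of total RNA. Gene expression was read in 8 of them, and the other 20, from ovaries with germline knockdowns, were not used here. The 4 groups hold 2 libraries each. OSS (ovarian somatic sheet) is a cell line from the ovary without germ cells, grown in M3 medium with serum, fly extract, insulin and glutathione. Ovary is whole dissected ovaries, and carcass is the female body left after the ovaries had been taken out. Embryo is embryos aged 0 to 2 h. The labels name no knockdown or drug for these groups, cells and flies were kept at 25 °C, the flies were given yeast paste, and strain and adult age are not stated in the labels. All 8 libraries were made from 5 ug of RNA with ribosomal RNA removed. The labels do not say whether replicates came from separate dissections or cultures, so p-values measure the spread between these samples, which may be technical.

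The insect cuticle is a layered shell of chitin fibres and proteins that the epidermis secretes at each moult, and the tracheae and the fore- and hindgut are lined with it too. CPR proteins share the Rebers and Riddiford domain, which binds chitin; the Lcp, Ccp84 and Acp65 genes belong to the same family and carry older names given for larval cuticle, for a cluster of cuticle genes and for adult cuticle. Tweedle (Twdl) proteins form a separate cuticle family, known from a dominant mutation of TwdlD that makes the body short and stout. Most Cpr genes are named after the chromosome band in which they lie, and sets of them sit side by side.

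Levels are FPKM, a fragment count scaled by transcript length and by the library's mapped fragments. Tissue markers set ovary apart from OSS: the summed FPKM of 6 germline genes was 1071 and 1094 in ovary and 44.6 and 45.3 in OSS, and that of 8 eggshell genes was 7854 and 7679 in ovary and 18.4 and 14.3 in OSS. In carcass the germline sum was 84.4 and 96.1 and the eggshell sum 463 and 345, both above OSS. The 4 markers of the OSS line summed to 205 and 203 in OSS and 69.4 and 66.1 in carcass. In limma, 3 of these 4 were higher and 1 was lower in OSS than in carcass. Carcass replicate 1 has no value for 964 genes, 36 of them cuticle genes, and lists 37 genes at 0 that reach 10 or more in carcass replicate 2. Sequencing depth is unknown from the files, but low values of a gene came in whole steps: 190 of 212 low values of cuticle genes (89.6%) lay within 0.08 of a whole multiple of the gene's smallest value, after scaling by the relative worth of 1 fragment in 7 libraries. Taking that step as 1 fragment gave an estimate for 70 genes, and taking the smallest value as 2 to 4 fragments gave one for 13 more. These estimates are rough, were added after the values were seen and enter no test. No step could be read in carcass replicate 1.

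Cuticle transcripts were concentrated in the carcass and in few genes. The 116 genes together had 2957 and 2352 FPKM in the 2 carcass libraries, 111 and 104 in OSS, 59.0 and 40.7 in ovary, and 29.9 and 78.7 in embryo. That is 0.545% and 0.384% of all FPKM in carcass and between 0.0065% and 0.0177% in the other 6 libraries. In carcass the 5 highest genes made up 70.5% and 66.6% of the sum. Of the 116 genes, 59 (50.86%) stood at 1 FPKM or more in carcass replicate 2, against 79.11% of all genes. In replicate 1, 31 of the 80 with a value (38.75%) did, against 75.22%. In OSS the number was 22 and 24, in ovary 18 and 15, and in embryo 14 and 22. Over all genes the shares were 67.54% and 66.65% in OSS, 61.35% and 59.97% in ovary, and 49.02% and 58.03% in embryo. In every library with a value, 16 genes were listed at 0, among them Cpr49Ad, Cpr65Av, Lcp65Ag1 and TwdlN, and 31 genes stayed under 1. Several of the 16, such as Ccp84Af, Cpr47Eg and TwdlB, had no value in carcass replicate 1. The share of all genes listed at 0 throughout was not counted, and at unknown depth a listed 0 need not mean silence. In whole tissues, fewer cells of a type and less RNA per cell cannot be told apart.

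**Figure D1:**
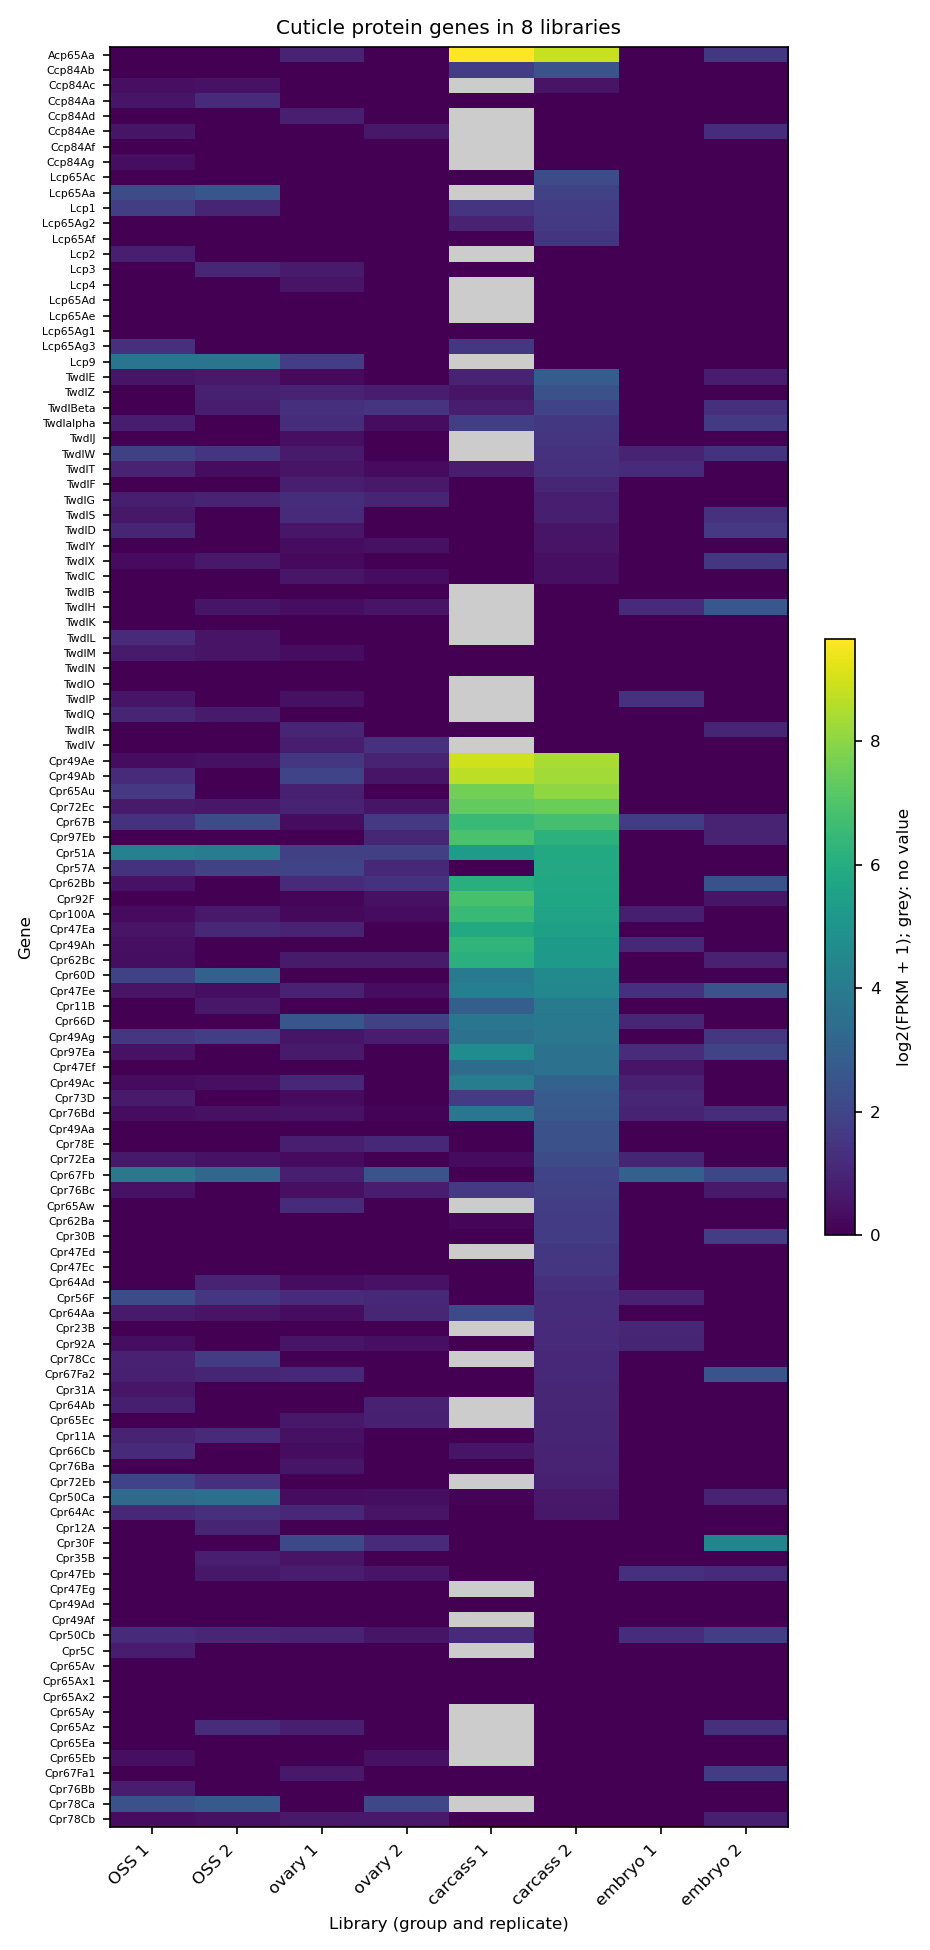
Level of each of the 116 cuticle genes (rows, by family and then by carcass replicate 2) in the 8 libraries (columns), as log2(FPKM + 1); grey marks the 36 genes with no value in carcass replicate 1. The bright cells lie in the carcass columns, in Acp65Aa and the upper Cpr rows, and most other cells are near 0.

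The families differed in how much they contributed. The Cpr genes summed to 2136 and 1846 FPKM in carcass, Acp65Aa alone gave 809 and 465, and the Twdl genes gave 5.15 and 24.2. The 13 Lcp genes reached 4.71 and 12.3 and the 7 Ccp84 genes 2.34 and 5.04. No Twdl, Lcp or Ccp84 gene reached 10 FPKM in carcass, where the highest was TwdlE with 0.892 and 6.08. The sums of carcass replicate 1 cover only the genes with a value there: 55 Cpr, 15 Twdl, 7 Lcp and 2 Ccp84 genes, with Acp65Aa. In OSS the Lcp sum was 20.8 and 19.2, above its carcass sum, and 12.4 and 12.1 of it came from Lcp9. That gene had no value in carcass replicate 1 and stood on an estimated 4 and 3 fragments in OSS.

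Of the 116 genes, 57 passed the filter of 1 FPKM in at least 2 libraries and were tested with limma on log2(FPKM + 1), 43 of them Cpr, 8 Twdl and 4 Lcp genes, with Ccp84Ab and Acp65Aa. For 26 of the 57 the filter was met only with the help of a carcass library, so these had to look higher there. A call means a Benjamini-Hochberg adjusted p under 0.05 over 11488 genes. Between ovary and carcass, 28 of 57 cuticle genes (49.1%) were lower in ovary, against 31.1% of all genes tested. Cuticle genes higher in ovary numbered 0, against 43.5% of all genes, and 74.6% of all genes were called in either direction. No cuticle gene was higher at an unadjusted limma p under 0.05 either. Some other runs called a few higher: 1 without a trend in the variance and 1 with 0.1 added in place of 1. Without the filter 1 of 100 was called higher, and with only the 2 groups compared 2 were. The median log2 difference was -1.21 for the cuticle genes and 0.31 for all genes. Between OSS and carcass, 28 were lower (49.1%, against 29.9% of all genes) and 5 higher (8.8%, against 46.1%), where 76.0% of all genes were called either way, with medians of -1.27 and 0.51. Between embryo and carcass, 30 were lower (52.6% of the 57, near the 54.1% of all genes) and 2 higher (3.5%, against 23.7%), where 77.7% of all genes were called either way, with medians of -1.68 and -1.17. The excess of lower calls was smaller among the 31 genes that passed the filter on OSS, ovary and embryo alone. Of these, 11 (35.5%) were lower in ovary and 0 higher, against 24.1% and 49.7% of the 10039 genes that passed in the same way. In OSS 9 (29.0%) were lower and 5 (16.1%) higher, against 22.9% and 52.7%, and in embryo 11 (35.5%) were lower and 2 (6.5%) higher, against 50.4% and 27.1%. The 3 comparisons share the carcass libraries. Without carcass replicate 2, only 35 cuticle genes could be tested against carcass, and 18 were lower in OSS and 20 in embryo. The count of 5 higher in OSS became 1 when either OSS replicate was left out.

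Quantile normalization and median-ratio scaling move all genes, with an ovary-carcass median of 0.35 and -0.30 in place of 0.31 and an embryo-carcass median of 0.30 and -0.99 in place of -1.17. The cuticle genes lower in ovary then numbered 21 of 57 and 33 of 53, those lower in OSS 22 and 28, and those lower in embryo 17 and 31, while those higher numbered 3 and 0, 7 and 3, and 5 and 3.

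**Figure D2:**
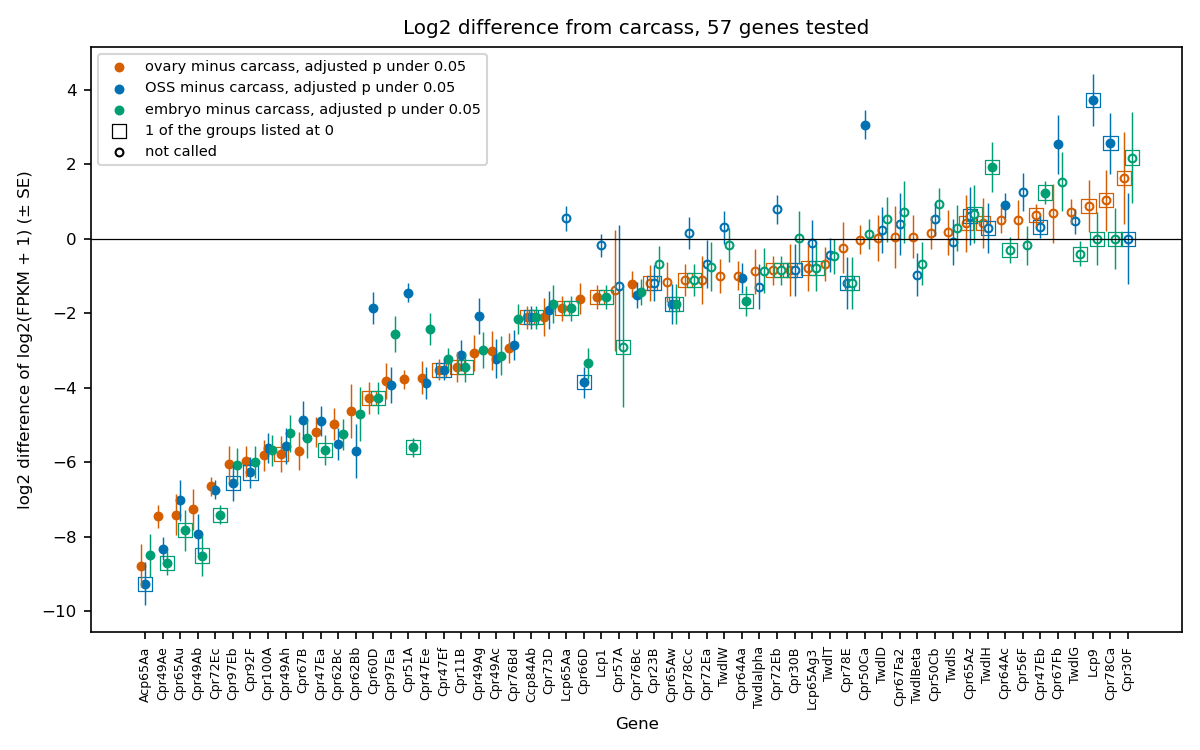
Log2 difference from carcass of log2(FPKM + 1), with its SE, for the 57 tested genes in ovary, OSS and embryo; filled points have a limma adjusted p under 0.05, open points do not, and a square marks a difference in which 1 of the groups is listed at 0, whose size is set by the added 1. The genes with the lowest differences lie far below 0 in all 3 groups, at -8.78 for Acp65Aa in ovary, and few points above 0 are filled.

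The leading carcass gene was Acp65Aa, an adult cuticle protein gene at the end of the 65A cluster. It stood at 809 and 465 FPKM in carcass, 0.957 and 0 in ovary, 0 and 0 in OSS, and 0 and 1.87 in embryo. Both carcass libraries lay far above all others, and no other library passed 2 FPKM. The ovary difference was -8.78 on the log2 scale (SE 0.57, limma adjusted p = 1.48e-05), and the embryo difference was -8.50 (SE 0.57, limma adjusted p = 8.27e-06). Next came Cpr49Ae with 503 and 345 FPKM in carcass, 2.00 and 0.884 in ovary, 0.264 and 0.345 in OSS, and 0 in both embryo libraries. Its differences were -7.46 in ovary (SE 0.32, limma adjusted p = 4.29e-06) and -8.32 in OSS. Cpr49Ab, named for the same band, had 416 and 316 in carcass against 2.81 and 0.461 in ovary, and 1.24 and 0 in OSS, a difference of -7.27 in ovary (SE 0.54). Cpr65Au had 195 and 262 in carcass, 0.780 and 0 in ovary and 2.06 and 0 in OSS. Cpr72Ec had 160 and 180 in carcass, 0.963 and 0.474 in ovary and 0.636 and 0.554 in OSS, and its ovary difference of -6.65 had the smallest error of these 5 (SE 0.26). These 5 are the genes above 100 FPKM in both carcass libraries.

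A further 14 genes reached 10 FPKM in both carcass libraries. Cpr67B had 93.2 and 111, Cpr97Eb 118 and 73.2, Cpr92F 114 and 51.4, and Cpr100A 91.4 and 49.4. Cpr62Bb had 66.7 and 54.1, Cpr49Ah 78.0 and 37.1, Cpr62Bc 69.2 and 36.9, and Cpr47Ea 57.4 and 43.6. All 8 are CPR genes of the chitin-binding family, with ovary differences from -4.63 (Cpr62Bb) to -6.04 (Cpr97Eb). The lower end held Cpr51A, Cpr47Ee, Cpr60D, Cpr97Ea, Cpr66D and Cpr49Ag, with carcass values between 11.4 and 57.5. In all 19 genes both carcass libraries lay above the other 6, which was so for 34.0% of the 6368 genes at 10 or more in both carcass libraries, and all 19 were called lower in ovary, in OSS and in embryo. Among those 6368 genes, 37.2% were called lower in ovary, 38.5% in OSS and 67.3% in embryo. The 19 were picked for their carcass level, so their calls are a description. Relative to the carcass mean, their median level was 0.538% in ovary, 0.350% in OSS and 0.476% in embryo. The highest shares were 28.6% for Cpr66D in ovary, 34.7% for Cpr51A in OSS and 15.9% for Cpr47Ee in embryo.

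**Figure D3:**
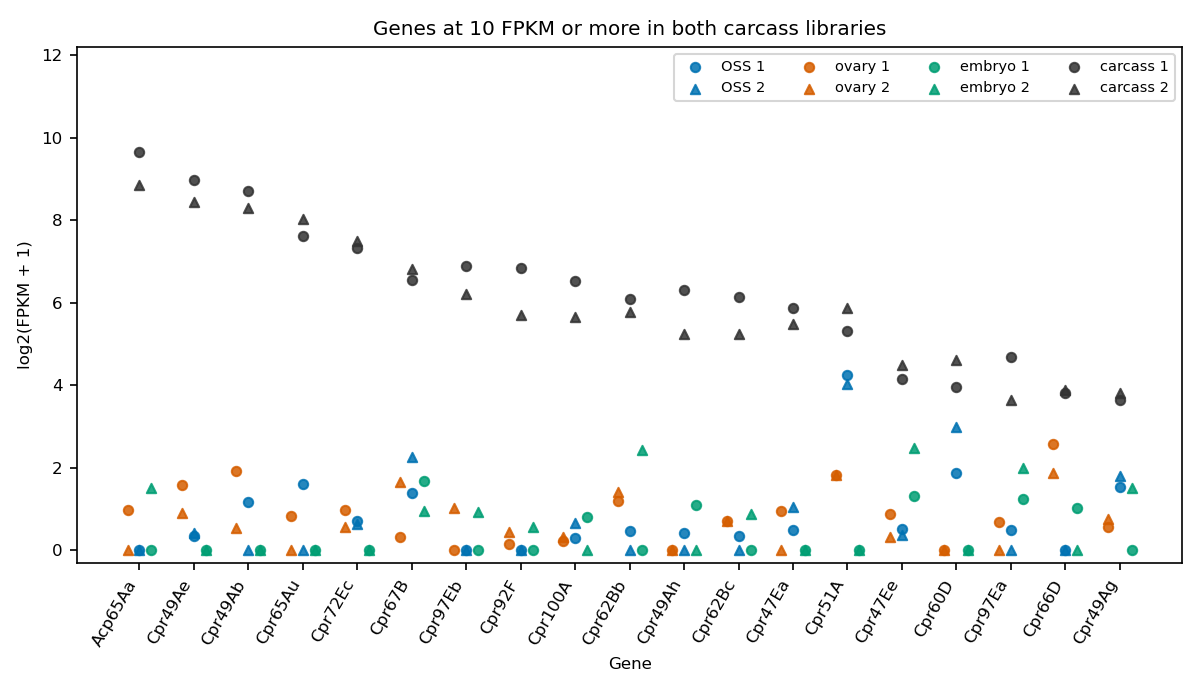
Level in each of the 8 libraries, as log2(FPKM + 1), of the 19 genes at 10 FPKM or more in both carcass libraries, ordered by carcass mean; circles are replicate 1 and triangles replicate 2. The black carcass points lie above every coloured point of the same gene, by the least in Cpr60D, where OSS had 2.64 and 6.90 FPKM against 14.4 and 23.4.

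The estimated fragments are the same FPKM values rescaled, so they show the number of fragments behind the contrast and are no second support for it. The 19 genes had between 13 (Cpr60D) and 935 (Cpr49Ae) fragments in carcass replicate 2, and between 2 and 63 in the other 6 step-scaled libraries together, with a median of 9. Acp65Aa had an estimated 526 fragments in carcass replicate 2 and 3 in those 6. The carcass replicates differed for these genes: the ratio of replicate 1 to replicate 2 had a median of 1.32 and ran from 0.617 (Cpr60D) to 2.22 (Cpr92F), and 11 of the 19 were higher in replicate 1. Over all 6368 genes at 10 or more in both, the median ratio was 0.855.

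Markers of other body tissues were compared with their carcass level in the same way. Levels in ovary relative to carcass had a median of 4.1% over 12 muscle genes (0.474% to 46.6%), 2.2% over 5 fat body genes (0.770% to 2.94%), 0.522% over 6 gut genes (0.207% to 25.4%) and 0.357% over 6 neuron and eye genes (0.213% to 63.9%). The median of the 19 cuticle genes, 0.538%, lies between the lowest and highest of these medians, and the part of body RNA in the ovary values was not tested. In OSS, a cell culture, the corresponding medians were 0.467% for muscle, 0.565% for fat body, 0.502% for gut and 0.808% for neuron and eye. The highest shares in OSS were 27.9%, 1.64%, 85.2% and 41.6%, in the same order. The 3 tracheal genes, 1 of which is the chitin-binding protein gene Gasp, summed to 139.7 and 83.4 FPKM in carcass and 3.78 and 3.53 in ovary. The 4 hemocyte genes summed to 64.2 and 89.3 in carcass and 30.7 and 32.6 in ovary.

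Cpr57A was set by a single library. It had 55.7 FPKM in carcass replicate 2 and is one of the 37 genes listed at 0 in carcass replicate 1. In OSS it had 1.65 and 2.71, in ovary 2.82 and 1.16, and in both embryo libraries 0. The OSS difference of -1.27 (SE 1.62, limma adjusted p = 0.5001) was not called, and the OSS and ovary differences were 1.65 and 1.52 without carcass replicate 2 and -4.18 and -4.30 without replicate 1, each called. The annotation places it over Obp57d, an odorant-binding protein gene on the same strand. Smaller carcass genes followed the same order as the 19: Cpr11B had 6.52 and 14.8 in carcass and 0 in both ovary libraries, Cpr47Ef 9.62 and 11.3 against 0, Cpr49Ac 15.7 and 7.37 against 1.16 and 0, and Cpr76Bd 12.8 and 5.44 against 0.400 and 0.0737.

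Neighbouring genes differed widely in level. By the order of protein-coding genes in RefSeq, 81 of the 116 stood next to another cuticle gene, in 20 runs, and 35 stood alone. The longest run covers 16 genes of band 65A, 14 of them among the 116. It starts with Lcp65Ag3 and Cpr65Au and ends with Lcp65Aa and Acp65Aa. Only Cpr65Au and Acp65Aa of this run reached 10 FPKM in carcass, and the other members of the run had at most 3.67 (Lcp65Ac in carcass replicate 2). Of the 16 cuticle genes named for band 65A, 9 were listed at 0 in that library. Acp65Aa and its direct neighbour Lcp65Aa stood at 465 and 2.64 FPKM in the same library.

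Of these bands, 49A held the most genes at 10 FPKM or more in a carcass library. Cpr49Ae, Cpr49Ab, Cpr49Ah, Cpr49Ag and Cpr49Ac reached 10 FPKM in at least 1 carcass library, whereas Cpr49Ad and Cpr49Af were listed at 0 in every library with a value. In band 47E the levels in carcass replicate 2 ran from 43.6 (Cpr47Ea) and 21.6 (Cpr47Ee) through 11.3 (Cpr47Ef) to 0. Band 84A, the Ccp84 cluster of 7 genes, held a single gene above 1 FPKM in carcass, Ccp84Ab with 2.34 and 4.62. That gene was listed at 0 in all 6 other libraries (limma adjusted p = 0.000648 for ovary). Copies with numbered names, such as Cpr65Ax1 and Cpr65Ax2, Lcp65Ag1 to Lcp65Ag3 and Cpr67Fa1 and Cpr67Fa2, may share reads, so their levels are uncertain.

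**Figure D4:**
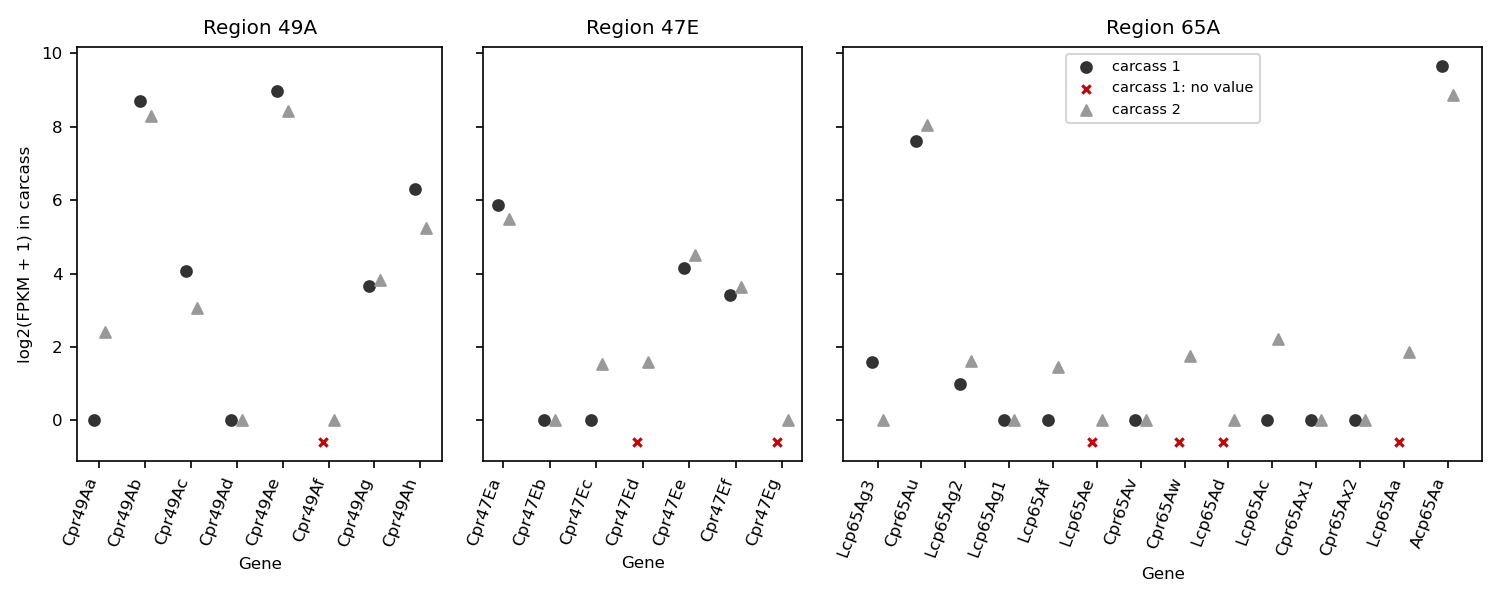
Carcass level, as log2(FPKM + 1), of the cuticle genes named for bands 49A, 47E and 65A, with circles for replicate 1 and triangles for replicate 2; a red cross marks a gene with no value in replicate 1. In each band a few genes stand high beside others at 0, and in 65A, drawn in the order of the run, only Cpr65Au and Acp65Aa stand out.

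Some cuticle genes were detected in OSS cells. In all, 16 genes reached 1 FPKM in both OSS libraries, and 7 of them did so in both libraries of no other group. Of the 7, Cpr72Eb, Cpr78Ca, Lcp65Aa, Lcp9 and TwdlW had no value in carcass replicate 1, so carcass could not qualify for them. Lcp65Aa and TwdlW had 2.64 and 1.58 FPKM in carcass replicate 2. Cpr49Ag, Cpr60D, Cpr67B, Lcp1 and Cpr51A reached 1 FPKM in both carcass libraries as well, and all of these but Lcp1 are among the 19 carcass genes. Only Cpr51A and Lcp9 reached 10 FPKM in both OSS libraries. In some genes both OSS libraries lay above every other library with a value, and how often this held over all genes was not counted. Several of them, such as Lcp9, Cpr78Ca and TwdlQ, had no value in carcass replicate 1. Others, such as TwdlM, stood on an estimated 2 and 1 fragments in OSS. Fragment support was thin: 4 genes had an estimated 10 or more fragments in an OSS library (Cpr50Ca, Cpr51A, Cpr56F and Cpr67Fb).

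Cpr50Ca carried the best supported difference. Its FPKM was 9.24 and 10.2 in the OSS libraries. Carcass had 0.0556 and 0.567, ovary 0.246 and 0.272, and embryo 0 and 0.961. OSS overlapped no other group, with an estimated 114 and 96 fragments in OSS and at most 5 in any other library with an estimate. OSS exceeded carcass by 3.06 on the log2 scale (SE 0.39, limma adjusted p = 0.000320), and ovary was lower than OSS (log2 difference -3.09, SE 0.39, limma adjusted p = 0.000880); both calls held in 15 of 15 alternatives. In the annotation this gene overlaps S-Lap7 on the opposite strand and the noncoding gene lncRNA:CR43810 on the same strand. The sources do not state whether strand was used in counting, so reads of these genes may be mixed.

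Cpr51A was shared between OSS and carcass. Carcass had 39.0 and 57.5 FPKM, OSS 18.0 and 15.5, ovary 2.56 and 2.52, and embryo 0 in both libraries. Carcass, OSS and ovary formed 3 steps without overlap. The OSS level was below carcass by 1.45 on the log2 scale (log2 difference -1.45, SE 0.25, limma adjusted p = 0.00151) and the ovary level below OSS (log2 difference -2.32, SE 0.25, limma adjusted p = 0.000447), each called in 17 of 17 alternatives. Cpr60D had a like order, with 14.4 and 23.4 in carcass, 2.64 and 6.90 in OSS, and 0 in ovary and embryo. Its OSS difference from carcass was -1.86 (SE 0.42, limma adjusted p = 0.00565).

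The other genes higher in OSS than in carcass were Lcp9, Cpr67Fb, Cpr78Ca and Cpr64Ac. Lcp9, a larval cuticle protein gene by name, had 12.4 and 12.1 FPKM in OSS. Ovary had 2.34 and 0, embryo 0, and carcass no value in replicate 1 and 0 in replicate 2. The OSS values stand on an estimated 4 and 3 fragments, and the adjusted p of limma against a carcass group listed at 0, of 1 library, was 0.00346 and stayed under 0.05 in 15 of 15 alternatives. Cpr67Fb had 13.3 and 8.01 in OSS against 0 and 2.86 in carcass, with 0.774 and 4.57 in ovary and 6.97 and 3.03 in embryo. Its difference of 2.53 (SE 0.80, limma adjusted p = 0.0226) was called in 12 of 17 alternatives, over which the adjusted p ran from 0.0067 to 0.139. Cpr78Ca had 4.28 and 5.59 in OSS on 3 and 3 fragments, against 1 carcass library listed at 0 (limma adjusted p = 0.0288, called in 11 of 15 alternatives, range 0.00324 to 0.103). Cpr64Ac had 1.14 and 1.49 in OSS and 0 and 0.531 in carcass (log2 difference 0.90, SE 0.34, limma adjusted p = 0.0439), a call kept in 6 of 16 alternatives, with adjusted p from 0.0148 to 0.187.

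**Figure D5:**
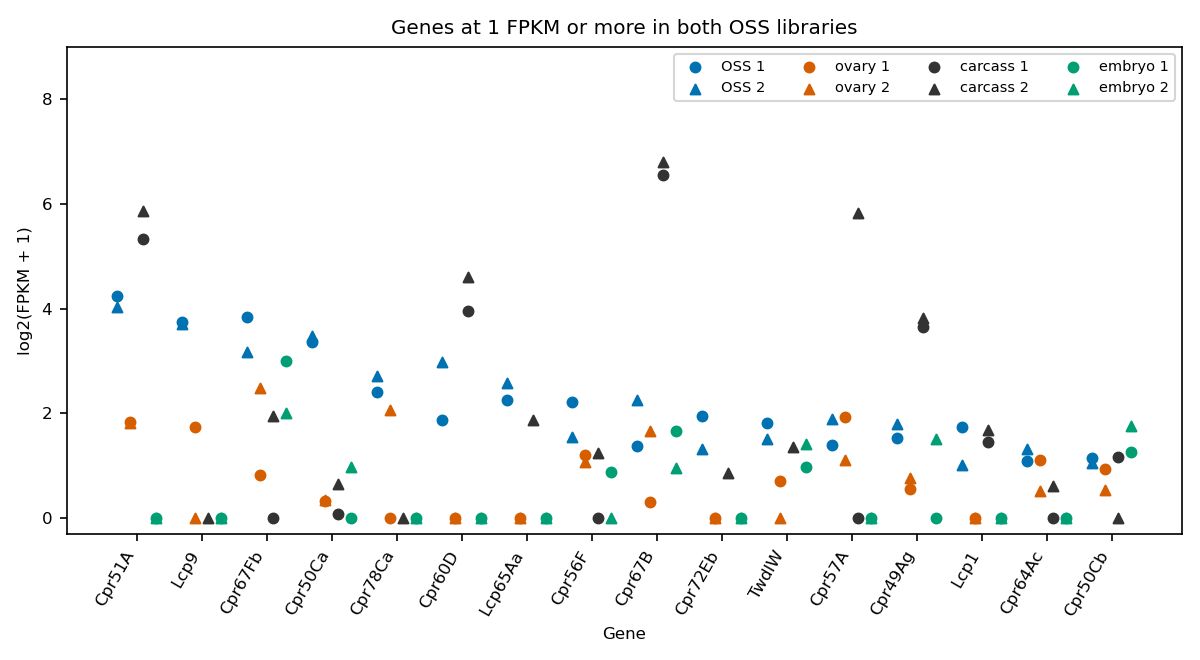
Level in each library, as log2(FPKM + 1), of the 16 genes at 1 FPKM or more in both OSS libraries, with circles for replicate 1 and triangles for replicate 2. Cpr50Ca and Lcp9 have OSS points above all others, whereas in Cpr51A, Cpr60D, Cpr67B and Cpr49Ag the carcass points are higher.

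Between ovary and OSS, 9 of the 57 cuticle genes (15.8%) were lower in ovary, against 23.0% of all genes, and 1 was higher, against 18.8%, with 41.7% of all genes called either way; the medians were -0.13 and -0.16. The counts of cuticle genes lie below the background in both directions. The lower genes were Cpr51A, Cpr60D, Cpr50Ca, Lcp9, Lcp65Aa, Lcp1, Cpr72Eb, TwdlW and Cpr78Cc, the last of which falls outside the naming rule and is named after its values were seen. Lcp65Aa had 3.78 and 4.94 in OSS and 0 in ovary, on an estimated 2 and 2 fragments, and Lcp1 had 2.35 and 1.02 in OSS, 1.74 and 2.19 in carcass and 0 in ovary. Without either OSS replicate the calls fell from 10 to 5.

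The gene that was higher in ovary than in OSS was Cpr66D. It had 5.02 and 2.69 FPKM in ovary, 0 in both OSS libraries, 13.04 and 13.9 in carcass, and 1.03 and 0 in embryo. Its ovary values rest on an estimated 22 and 8 fragments. The limma adjusted p against OSS, listed at 0, was 0.00474, and the call was lost only under quantile normalization, at 0.0540. It was lower in ovary than in carcass by 1.62 on the log2 scale (log2 difference -1.62, SE 0.41, limma adjusted p = 0.00939, called in 14 of 17 alternatives, range 0.00303 to 0.291). This made Cpr66D the gene among the 19 carcass genes with the highest ovary share. Other cuticle genes at 1 or more in both ovary libraries were few. Cpr62Bb had 1.27 and 1.67, and Cpr56F had 1.295 and 1.09 in ovary and 3.66 and 1.92 in OSS. Cpr30F had 3.30 and 1.22 in ovary, but a single embryo library at 19.4 beside another at 0, so its embryo level depends on that library.

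In early embryos no cuticle gene had an estimated 10 fragments. Between embryo and ovary, 5 of 57 genes (8.8%) were lower in embryo, against 44.8% of all genes, and 1 was higher, against 15.1%, with 59.9% of all genes called either way and medians of 0.0 and -0.58. Quantile normalization gave 4 lower and 8 higher and median-ratio scaling 2 lower and 7 higher of 53, so the balance of directions depends on the scaling. The lower genes were Cpr51A, Cpr66D, Cpr49Ae, TwdlG and Cpr72Ec, of which all but Cpr66D were listed at 0 in both embryo libraries. By the steps, 1 fragment was worth 3.41 and 2.96 times as much FPKM in embryo as in OSS replicate 1, against 0.757 and 1.12 times in ovary. Low levels were thus read less finely in embryo, and these values of 0 lie near the floor. The higher gene was Cpr47Ee, with 1.51 and 4.58 in embryo, 0.836 and 0.247 in ovary, and 16.8 and 21.6 in carcass. Its embryo difference from ovary was 1.31 (SE 0.43, limma adjusted p = 0.0346), called in 11 of 17 alternatives with adjusted p from 0.000498 to 0.177. The 2 genes higher in embryo than in carcass were both at 0 in carcass. Cpr47Eb had 1.45 and 1.26 in embryo (limma adjusted p = 0.00676, called in 15 of 15 alternatives), and TwdlH had 1.24 and 5.40, against 1 carcass library (limma adjusted p = 0.0371, called in 7 of 13, range 0.00267 to 0.184). They stand on 1 to 5 estimated fragments a library.

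The Tweedle genes were low throughout. The highest value of the 25 genes in any library was 6.08 FPKM (TwdlE in carcass replicate 2), and of the 12 genes that lie in 1 run from TwdlM to TwdlD, TwdlB, TwdlO, TwdlK and TwdlN were listed at 0 in every library with a value. Of the 8 tested, 0 were called in limma between ovary and carcass and 0 between OSS and carcass, against 74.6% and 76.0% of all genes, and 0 had an unadjusted p under 0.05 there. Quantile normalization called 1 higher in ovary and 1 higher in OSS, and median-ratio scaling called 2 of 6 lower in ovary and 0 in OSS. TwdlG had 1.39 and 1.03 in ovary, against 0.735 and 0.960 in OSS, 0 and 0.771 in carcass, and 0 in embryo (limma adjusted p = 0.0220 for embryo against ovary, called in 12 of 14 alternatives, range 0.00572 to 0.0698). TwdlW had 2.54 and 1.84 in OSS and 0.641 and 0 in ovary (log2 difference -1.31, SE 0.37, limma adjusted p = 0.0343, called in 8 of 16, range 0.0260 to 0.181). Carcass levels of TwdlZ, 0.415 and 4.23, and of TwdlBeta, 0.665 and 2.86, differed between replicates by more than they differed from other groups.

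The genes that build and harden cuticle, taken from fixed lists that were chosen with earlier results of these data known, were mostly lower outside carcass, apart from the moulting regulators. Among all genes tested, 31.1% were lower and 43.5% higher in ovary than in carcass, with a median of 0.31. Of 33 tested genes for chitin synthesis and organization, 27 (81.8%) were lower and 5 (15.2%) higher in ovary, with a median log2 difference of -3.01. In OSS 26 were lower and 6 higher (29.9% and 46.1% of all genes), and in embryo 28 and 2 (54.1% and 23.7%). The lower and higher counts in ovary were 24 and 4 under quantile normalization and 27 and 1 of 34 under median-ratio scaling. Chitin synthase, kkv, had 15.7 and 7.70 FPKM in carcass and 0.272 and 0 in ovary (log2 difference -3.42, SE 0.38, limma adjusted p = 0.000160). The chitin deacetylase serp had 60.5 and 39.2 against 0.509 and 1.13. A pair of chitinase genes went the other way in OSS: Cht2 had 108 and 106 in OSS and 21.5 and 18.3 in carcass, and Cht3 had 34.6 and 35.8 against 1.72 and 1.75 (log2 difference 3.73, SE 0.23, limma adjusted p = 1.24e-05).

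Of 23 tested genes of tanning and pigment, 18 (78.3%) were lower and 3 higher in ovary than in carcass, with a median of -3.38, and 14 and 4 under quantile normalization and 18 and 1 under median-ratio scaling. In OSS 17 were lower and 2 higher, and in embryo 19 and 1. The tyrosine hydroxylase gene ple, first enzyme of the tanning pathway, had 76.1 and 46.6 FPKM in carcass, 1.05 and 0.704 in ovary and 0.454 and 0.538 in OSS (ovary difference -5.02, SE 0.31, limma adjusted p = 1.22e-05). Dopa decarboxylase, Ddc, had 89.8 and 65.3 in carcass, 1.93 and 0.514 in ovary and 55.9 and 51.6 in OSS. For Ddc the OSS difference of -0.50 was not called (SE 0.63, limma adjusted p = 0.489). The 2 yellow family genes yellow-g and yellow-g2, which are known for the eggshell, were higher in ovary, at 77.0 and 72.1 and at 136 and 122 FPKM (the call of yellow-g2 was lost under median-ratio scaling, adjusted p = 0.0779, against 0.00931 as deposited and 0.0482 under quantile normalization). Of 19 tested other cuticular and chitin-binding proteins, 13 (68.4%) were lower and 0 higher in ovary (11 and 1 under quantile normalization, 14 and 0 under median-ratio scaling), with a median of -3.16. In OSS 14 were lower and 2 higher, and in embryo 15 and 0 (2 higher under quantile normalization). At an unadjusted limma p under 0.05, 1 was higher in ovary and 0 in embryo. Acp1, another adult cuticle protein, had 70.1 and 49.1 FPKM in carcass and was listed at 0 in all 6 other libraries. In OSS, obst-F had 18.4 and 17.7 and Peritrophin-A 29.9 and 31.8. Of 21 tested moulting and epidermal regulators, 8 (38.1%) were lower and 6 (28.6%) higher in ovary than in carcass. The counts in ovary were 5 lower and 7 higher under quantile normalization and 10 and 3 under median-ratio scaling. The direction in ovary thus depended on the scaling. In OSS 9 were lower and 2 higher, with 8 and 4 under quantile normalization and 12 and 2 under median-ratio scaling. In embryo 11 were lower and 2 higher, with 7 and 7 under quantile normalization and 12 and 5 under median-ratio scaling. Within this list the epidermal transcription factor grh had 19.9 and 21.0 FPKM in carcass, 1.12 and 0.289 in ovary and 0.473 and 0.340 in OSS. Others went the other way: ovo had 9.15 and 10.5 in carcass and 92.6 and 96.3 in ovary, and ftz-f1, a nuclear receptor gene, had 23.8 and 26.5 in carcass and 83.9 and 79.5 in ovary. The ecdysone receptor genes EcR and usp were also called higher in ovary, a call that EcR lost under median-ratio scaling.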

How the data were processed

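Total RNA libraries of OSS cells, ovaries, carcasses and embryos (2 each) were analysed. The authors deposited FPKM per gene for each library; TopHat, Bowtie and Cufflinks are named beside CASAVA 1.3 and the build dm3, per the submitters' processing notes. In the deposited table of carcass replicate 1, other values than numbers (blanks and text) stand in the FPKM column; these were left missing, so the carcass mean of such a gene rests on replicate 2. The knockdown libraries were not used here.

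Genes were joined by name, and 93 names on several lines were left out, which left 13892. Values were tested as log2(FPKM + 1) with limma 3.58.1 in R 4.3.3, with 1 fit of all 8 libraries by group, a trend in the variance and 4 residual degrees of freedom, over 11488 genes at 1 FPKM or more in at least 2 libraries. Fold changes on that scale understate the change of low genes. The fit was tested on simulated data. Read totals are unknown, so no counting interval is given. Alternatives were another pseudocount, filter, scaling, variance model, sample set, treatment of missing values, a replicate block and each library left out. Named genes were, per family, the highest in carcass, those at 1 FPKM or more in both libraries of OSS, ovary or embryo, and the largest and smallest differences in each comparison; other genes named were chosen after their values were seen. The members and lists were chosen with earlier results of these data known. Gene order, taken over protein-coding genes, and overlaps come from RefSeq and Ensembl annotations of another build, and no coordinates are printed.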

Additional observations from a re-analysis of the deposited data

How the results depend on the processing

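The counts of cuticle genes called against carcass stayed within 1.5 times of 28 (ovary), 33 (OSS) and 32 (embryo) under each alternative run, and leaving out 1 library in turn gave 23 to 30, 24 to 34 and 22 to 32. Between ovary and OSS the count of 10 became 5 with only genes valued in all 8 libraries, and 5 to 13 with 1 library left out. Between embryo and ovary the count of 6 became 12 under quantile normalization (8 higher, 4 lower) and 2 to 9 with 1 library left out, the lowest without ovary replicate 1; the cause was not tested. Of the 89 calls of named genes, 64 held under every alternative run. Against carcass these were 20 of 23 in ovary, 22 of 26 in OSS and 17 of 25 in embryo. Between ovary and OSS 4 of 9 held, and between embryo and ovary 1 of 6. Named genes were partly picked for large differences, so these shares need not hold for the other cuticle genes. Reversed values were few. TwdlW was higher in embryo than in carcass by 2.43 under quantile normalization, Cpr57A was higher in ovary and OSS than in carcass by 1.52 and 1.65 without carcass replicate 2 (-4.30 and -4.18 without replicate 1). Embryo differed from ovary by 1.14 and -1.30 in Cpr62Bb without embryo replicates 1 and 2, and by 2.72 and -1.63 in Cpr30F. The labels number the replicates alike and do not say whether same-numbered libraries were made together. Over genes valued in all 8 libraries, replicate deviations correlated between -0.066 and 0.023 across groups. A low correlation over many genes cannot show whether the libraries were paired. The replicate block gave 28, 31, 32, 9 and 7 calls in the 5 comparisons. Setting missing values to 0, an alternative chosen after seeing the data, gave 27, 34, 30, 8 and 7. Outside carcass most cuticle genes stand on under 10 estimated fragments a library, which limits every comparison among OSS, ovary and embryo.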
